A study of Mus musculus with 16 samples.

Results

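The 39 genes described here are imprinted in the mouse, meaning that in some or all tissues the copy inherited from 1 parent is transcribed and the other copy is kept silent. They were chosen by name, with earlier results of these data known, and are 39 of the 53711 genes of the expression table. Shares of them called, set beside those of all genes, are therefore given as a description. They lie in 17 imprinted domains on 11 chromosomes, with 15 of them on chromosome 7. The symbol found 38 of them, and *Rtl1*, which the table spells *Rlt1*, was found by its Ensembl identifier. Paternal expression is known for 21, maternal expression for 12, and the other 6 are *Gnas*, whose transcripts differ in parental origin, and 5 genes with a preference that is partial or limited to certain tissues (*Copg2*, *Ddc*, *Ube3a*, *Commd1* and *Trappc9*). Which allele was expressed was not measured, so every value below is the sum over both parental copies.

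RNA-seq was performed on cells of the developing mouse stomach, in which a squamous proximal and a columnar distal epithelium arise from 1 tube, to compare epithelial cells that differ in *Sox2* and *Gata4* and the fibroblasts around them. All 16 libraries came from embryos of the strain Sox2-EGFP; Gata4-td Tomato, kept on a mixed C57BL/6 and 129×1/Sv background, in which EGFP and td Tomato were knocked in at *Sox2* and *Gata4*, so that 1 allele of each gene carried a reporter in every group, and no wild-type group was used here. EpCAM-positive epithelial cells were sorted by both reporters into Sox2hi and Gata4hi cells at embryonic day E11.5, with 1 library each, and into Sox2hi (3 libraries), Sox2midGata4mid (2 libraries) and Gata4hi cells (3 libraries) at E13.5. PDGFRα-positive fibroblasts were sorted from the proximal and the distal stomach at 3 stages (E13.5, E15.5, E17.5), with 1 library for each region and stage, and fibroblast values are given below in that order of stages. Whether replicate libraries came from separate litters, or from pooled embryos, was not stated, so the p-values below measure the spread between these libraries, which may be technical. Fibroblasts had no replicate library for any region and stage. Their tests of stage and region measure the spread that region and stage added together do not describe, not that between replicates. In bulk libraries, fewer cells of a type and less RNA per cell cannot be told apart.

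As background, the parental copies of an imprinted domain differ in DNA methylation at an imprinting control region, set in the egg or the sperm and kept through development, and this mark decides which copy of each gene in the domain is used. Several domains hold a long noncoding RNA made from 1 parental copy that silences its neighbours on that copy, as *Airn* does for *Igf2r* and *Kcnq1ot1* for *Cdkn1c* and *Phlda2*. Many imprinted genes act on fetal growth: *Igf2* is a growth factor, *Igf2r* clears IGF2 protein, *Grb10* dampens insulin and IGF receptors and *Cdkn1c* stops the cell cycle. As a group they are known for high expression in embryonic mesoderm and for a fall after birth.

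The starts of 4 genes on which the results below turn most are shown, 3 from the *Peg3* domain, whose genes were higher in both *Gata4*-bearing gates than in Sox2hi cells under every alternative run, and *Mest*, which differed most between fibroblasts and epithelium. Each window is from RefSeq on GRCm38.p6, runs 5′ to 3′ on the strand of its gene from 250 bases before to 50 bases after the transcript start, and is in lower case with every CpG, the dinucleotide that carries imprint methylation, in capitals. The positions are *Peg3* chr7:6730370-6730669 on the minus strand, *Usp29* chr7:6730333-6730632 on the plus strand, *Zim1* chr7:6696383-6696682 on the minus strand and *Mest* chr6:30737800-30738099 on the plus strand.
Peg3: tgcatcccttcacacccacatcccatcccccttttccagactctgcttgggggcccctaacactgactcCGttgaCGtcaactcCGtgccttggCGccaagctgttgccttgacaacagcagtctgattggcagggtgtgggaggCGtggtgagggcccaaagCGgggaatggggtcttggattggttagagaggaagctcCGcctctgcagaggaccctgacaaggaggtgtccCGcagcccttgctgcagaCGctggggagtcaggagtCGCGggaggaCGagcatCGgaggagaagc
Usp29: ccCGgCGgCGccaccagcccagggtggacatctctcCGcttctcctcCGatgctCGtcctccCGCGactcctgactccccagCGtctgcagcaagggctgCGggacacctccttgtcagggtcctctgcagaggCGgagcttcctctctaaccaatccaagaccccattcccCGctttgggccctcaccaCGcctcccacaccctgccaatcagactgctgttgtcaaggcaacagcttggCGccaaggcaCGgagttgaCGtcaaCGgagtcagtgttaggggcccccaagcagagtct
Zim1: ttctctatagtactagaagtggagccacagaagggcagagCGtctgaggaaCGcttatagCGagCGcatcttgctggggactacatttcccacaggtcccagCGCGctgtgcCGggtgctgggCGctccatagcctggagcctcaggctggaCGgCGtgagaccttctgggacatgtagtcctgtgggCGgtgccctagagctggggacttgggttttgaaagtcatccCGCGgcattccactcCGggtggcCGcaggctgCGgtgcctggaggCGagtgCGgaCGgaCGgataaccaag
Mest: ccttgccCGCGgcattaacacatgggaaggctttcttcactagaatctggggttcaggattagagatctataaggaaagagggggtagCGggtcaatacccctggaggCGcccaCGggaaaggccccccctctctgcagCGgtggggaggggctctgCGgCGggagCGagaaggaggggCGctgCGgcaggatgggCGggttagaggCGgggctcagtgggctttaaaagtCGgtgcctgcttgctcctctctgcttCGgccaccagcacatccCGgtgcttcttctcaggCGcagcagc

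These windows hold 13, 17, 20 and 17 CpGs, respectively. *Peg3* and *Usp29* are read in opposite directions from starts 164 bases apart, and their windows share 263 bases. RefSeq gave 48 windows for 31 of the 39 genes, each holding between 0 and 45 CpGs, and the median over all 32851 windows of mouse genes was 7. The letters TGCCGC, searched on both strands as the core of the sequence that ZFP57, an imprint maintenance factor, binds when methylated, occurred 0, 0, 1 and 2 times in the 4 windows in the same order, and in 12 of the 48 windows of imprinted genes (25.0%) against 11.6% of all windows. The 12 windows belong to 11 genes, with overlapping windows of *Mest* counted separately. These letters hold a CpG themselves and the windows were not matched for CpG content, whose part in the 2 shares was not tested. A match to these letters describes the sequence only, and neither methylation nor binding was measured. No window was at hand for *H19*, *Peg10*, *Sgce*, *Peg13*, *Cdkn1c*, *Trappc9*, *Impact* and *Rtl1*.

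Expression was given as FPKM (fragments scaled to transcript length and to mapped reads), in which levels of different genes can be set side by side because transcript length is divided out. The FPKM of a library summed to 436296 to 656588, and 12316 to 12840 genes per library were at 1 FPKM or more. Read totals were not given, so depth in reads is unknown. The labelled cell types matched their markers: 12 epithelial markers (*Epcam*, *Cdh1* and others) summed to 1475 to 2112 FPKM in epithelial and 2.73 to 9.37 in fibroblast libraries, and 13 fibroblast markers to 40.8 to 135.5 against 5457 to 34030.3. The genes that carry the reporters followed the gates at E13.5, with *Sox2* at 85.7 to 94.1 FPKM in Sox2hi, 73.3 to 73.8 in Sox2midGata4mid and 49.9 to 61.2 in Gata4hi libraries and *Gata4* at 3.21 to 7.26, 40.0 to 84.4 and 157 to 199. At E11.5 *Sox2* was at 87.5 and 69.1 FPKM and *Gata4* at 25.9 and 229 in Sox2hi and Gata4hi cells. Sox2hi cells thus held more *Gata4* at E11.5 than at E13.5, and gates of the same name were not alike between stages. Fibroblast libraries also held smooth muscle markers, which summed to 481 to 1556 FPKM, against 3.17 to 13.9 in the epithelium, and the E11.5 Gata4hi library held blood markers at 54.2 FPKM. The labels of E13.5 replicate 3 of Sox2hi and Gata4hi are written like those of the E11.5 and fibroblast libraries, while the other E13.5 epithelial libraries share another style. Whether this marks a batch was not stated, so the comparisons across stages and compartments were repeated with libraries of the first style alone.

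The 39 genes together made up 1.39 to 2.56% of the summed FPKM of a library. Without *H19* and *Igf2* the share was 0.385 to 0.490% in the epithelium and 0.778 to 1.27% in fibroblasts, and these ranges did not overlap. *H19* ranked between 3 and 7 among all genes of an epithelial library and between 7 and 12 in fibroblasts. The 5 genes that were called in none of the 7 main comparisons and had a mean under 20 FPKM in both compartments were *Ascl2* at 0 to 1.22 FPKM, *Rtl1* at 0 to 1.74, *Magel2* at 0.0808 to 3.17, *Rasgrf1* at 0 to 1.22 and *Peg13* at 2.40 to 5.54 over the 16 libraries. Between 34 and 35 of the 39 genes had a mean of at least 1 FPKM and were tested in each comparison below.

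Limma was fitted to log2(FPKM + 1) of all genes at this level, and a gene was called at an adjusted p under 0.05 (Benjamini-Hochberg over all genes tested). Fold changes are on that scale, which understates changes of low genes. Between Gata4hi and Sox2hi cells at E13.5, 14 of 34 imprinted genes tested were called, 10 higher and 4 lower in Gata4hi, against 21.6% of all 13127 genes (14.9% higher and 6.7% lower). Sox2midGata4mid cells differed from Sox2hi in 8 (7 higher, 1 lower, background 5.55%, higher 2.54% and lower 3.01%) and from Gata4hi in 11 (4 higher, 7 lower, background 13.6%, higher 2.59% and lower 11%). From E11.5 to E13.5 the epithelium gained 3 and lost 7 of 35 imprinted genes tested (background 10.6%, higher 3.81% and lower 6.83%). Fibroblasts exceeded the epithelium at E13.5 in 19 and were below it in 7 of 35 (background 54.6%, higher 30.9% and lower 23.7%). From E13.5 to E17.5, 4 rose and 9 fell in fibroblasts, of 35 tested (background 37.1%, higher 9.96% and lower 27.1%). These calls were 37.1% of the imprinted genes tested, about the same share as over all genes. None was called between distal and proximal fibroblasts (background 0%).

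The median size of the log2 difference of the imprinted genes was 0.32 against 0.24 over all genes between Gata4hi and Sox2hi, 0.88 against 0.50 between fibroblasts and epithelium, and 0.57 against 0.56 between E17.5 and E13.5 fibroblasts. By parental class, 5 paternally expressed genes of 18 tested were higher and 0 lower in Gata4hi than in Sox2hi, and 3 maternally expressed genes of 10 were higher and 3 lower (14.9% and 6.7% of all genes). In fibroblasts against epithelium these counts were 10 higher and 3 lower of 18 paternal genes, and 6 higher and 2 lower of 11 maternal genes (30.9% and 23.7% of all genes). Genes of the same domain, such as *Peg3* and *Usp29*, are not separate cases, and a difference between the classes was not tested. The split between higher and lower depends on how libraries are scaled. Rescaling all libraries to the same FPKM sum (TPM scale) moved the median of all genes from 0.08 to -0.05 between Gata4hi and Sox2hi, from -0.13 to 0.13 between Sox2midGata4mid and Gata4hi, from 0.08 to -0.27 between fibroblasts and epithelium, and from -0.31 to about 0 between E17.5 and E13.5 fibroblasts. On that scale the counts of imprinted genes higher and lower were 9 and 7, 6 and 3, 16 and 9, and 8 and 4 in these comparisons, and 7 and 7 for E13.5 against E11.5 epithelium. The sign of a difference below these shifts depends on the scale.

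Single libraries weighed heavily where a stage or compartment had few of them. For E17.5 against E13.5 fibroblasts, leaving out the proximal or the distal E13.5 library gave 0 calls in limma among the imprinted genes and among all genes (4488 and 4904 of all genes at an unadjusted p under 0.05). Leaving out 1 of the other 4 libraries gave 3 to 8 imprinted genes. Each of these fits had 1 residual degree of freedom. All 13 genes called with the 6 libraries kept their sign in these fits. Between E13.5 and E11.5 epithelium, 3 imprinted genes were called without the E11.5 Sox2hi library, which leaves the change within Gata4hi cells, and 8 without the E11.5 Gata4hi library, which leaves that within Sox2hi cells. For fibroblasts against epithelium 24 were called without the proximal and 22 without the distal E13.5 fibroblast library.

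*Peg3* (chr7:6703892-6730431), *Usp29* (chr7:6730578-6967219) and *Zim1* (chr7:6671269-6696450) share 1 imprinted domain on chromosome 7, in coordinates of the mm10 table. *Peg3* and *Zim1* encode zinc finger proteins and *Usp29* a ubiquitin-specific protease; *Peg3* and *Usp29* are expressed from the paternal and *Zim1* from the maternal copy. *Peg3* stood at 51.0, 50.04 and 41.0 FPKM in Sox2hi, 214 and 202 in Sox2midGata4mid and 279, 271 and 263 in Gata4hi cells at E13.5. The 3 groups did not overlap, and *Peg3* was 5.64-fold higher in Gata4hi than in Sox2hi cells (log2 fold change 2.50, SE 0.09, adjusted p = 9.96e-06). *Usp29* followed the same order, at 5.43, 6.41 and 4.99 FPKM in Sox2hi, 15.8 and 16.3 in Sox2midGata4mid and 20.1, 19.3 and 17.8 in Gata4hi cells. It was 3.05-fold higher in Gata4hi than in Sox2hi (log2 fold change 1.61, SE 0.11, adjusted p = 5.56e-05). *Zim1* was barely expressed in Sox2hi cells, at 2.50, 3.02 and 1.37 FPKM in Sox2hi, 35.01 and 24.0 in Sox2midGata4mid and 49.9, 47.0 and 36.5 in Gata4hi cells. Its difference between Gata4hi and Sox2hi was the largest of the 34 imprinted genes tested, 14.0-fold (log2 fold change 3.81, SE 0.23, adjusted p = 3.77e-05). Sox2midGata4mid cells were also above Sox2hi for all 3 genes (*Peg3* 2.12, adjusted p = 0.000227, *Usp29* 1.37, adjusted p = 0.000969 and *Zim1* 3.22, adjusted p = 0.000866, as log2 fold changes). These 6 calls held under every alternative run. Between Sox2midGata4mid and Gata4hi, *Usp29* (-0.23, adjusted p = 0.243) and *Zim1* (-0.59, adjusted p = 0.183) were not called, and *Peg3* was called lower in Sox2midGata4mid (log2 fold change -0.38, adjusted p = 0.0485). That call was lost without any 1 of Sox2hi replicates 1 and 2, Sox2midGata4mid replicates 1 and 2 and Gata4hi replicates 1, 2 and 3 (adjusted p 0.0583 to 0.209) and with no filter on low values, on the TPM scale, with quantile normalization and with no trend in the variances (adjusted p 0.0871 to 0.808).

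At E11.5 the domain was already active in both gates, with *Peg3* at 228 and 475 FPKM, *Usp29* at 22.8 and 40.4 and *Zim1* at 24.0 and 78.5 in Sox2hi and Gata4hi cells in that order (1 library each). The Gata4hi library was the higher for each, by log2 differences of 1.06, 0.80 and 1.67. From E11.5 to E13.5 all 3 fell, averaged over the Sox2hi and Gata4hi gates: *Peg3* by log2 fold change -1.53, adjusted p = 0.000611, *Usp29* by -1.45, adjusted p = 0.000967 and *Zim1* by -1.89, adjusted p = 0.005. The call of *Zim1* was lost without the E11.5 Sox2hi library (log2 fold change -0.82, adjusted p = 0.282). The fall was steeper in Sox2hi cells: the Gata4hi to Sox2hi difference of *Peg3* widened between stages (difference of log2 fold changes 1.44, SE 0.18, adjusted p = 0.018, 1 of 35 imprinted genes tested against 1.17% of all genes). For *Zim1* (2.14, adjusted p = 0.0952) and *Usp29* (0.81, adjusted p = 0.144) the same term was not called. Each E11.5 group is 1 library, whose spread was taken to equal that of the others. The Sox2hi gate also held *Gata4* at 25.9 FPKM at E11.5 and at 3.21 to 7.26 at E13.5. The part of this in the stage changes was not tested.

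**Figure D1:**
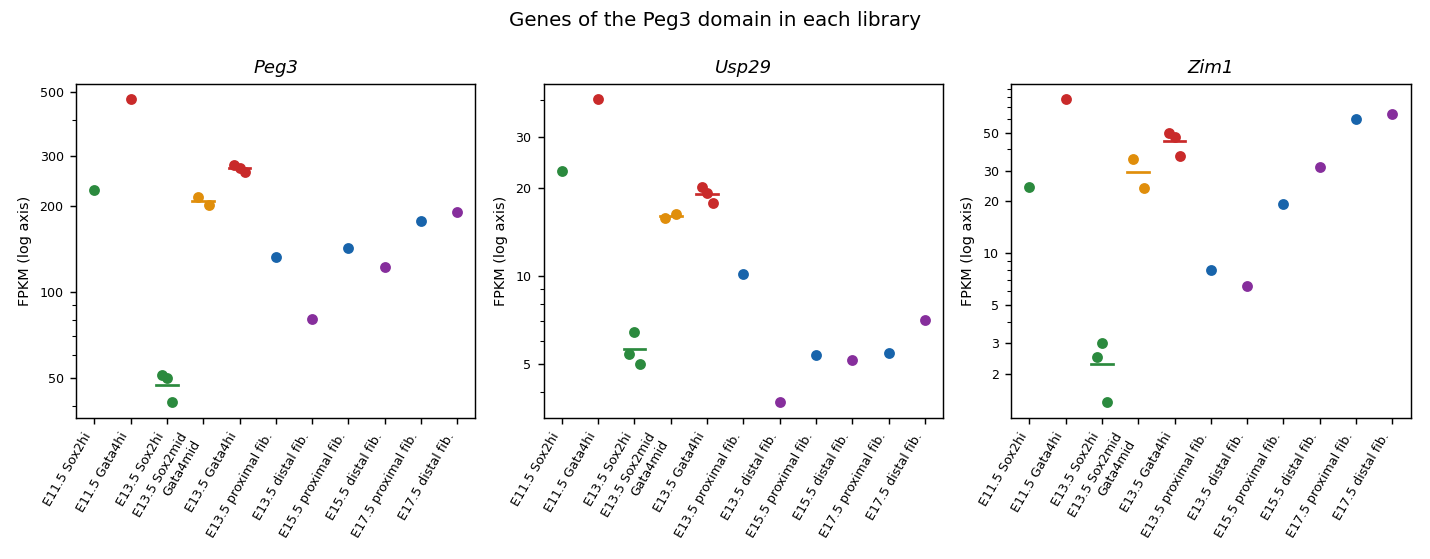
*Peg3*, *Usp29* and *Zim1* by library. Each point is 1 library, the vertical axis is FPKM on a log scale, and the groups are the epithelial gates at E11.5 and E13.5 and the fibroblasts at 3 stages (fib.), with bars at the mean; at E13.5 the Sox2hi libraries (*Peg3* 41.0 to 51.0 FPKM) sit below the Gata4hi libraries (263 to 279 FPKM).

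In fibroblasts the 3 genes parted. *Peg3* was at 132, 143 and 177 FPKM in proximal and 80.3, 123 and 191 in distal fibroblasts. *Zim1* climbed from E13.5 on in both regions, at 7.95, 19.3 and 59.6 FPKM in proximal and 6.43, 31.7 and 63.9 in distal fibroblasts. From E13.5 to E17.5 it rose 7.69-fold (log2 fold change 2.94, SE 0.25, adjusted p = 0.00536), the largest rise among the imprinted genes tested. The call was lost without any 1 of the E13.5 proximal and E13.5 distal fibroblast libraries (log2 fold change 2.61 to 3.27, adjusted p 0.0598 to 0.0775). *Peg3* rose too (log2 fold change 0.83, adjusted p = 0.0405). This call was lost without any 1 of the 6 fibroblast libraries (log2 fold change 0.50 to 1.157, adjusted p 0.0629 to 0.163) and with no filter on low values (adjusted p = 0.111) and with no trend in the variances (adjusted p = 0.0668). *Usp29* did not pass (-0.01, adjusted p = 0.993), with 10.2, 5.36 and 5.43 FPKM in proximal and 3.69, 5.18 and 7.05 in distal fibroblasts. The ratio of *Zim1* to *Peg3* FPKM went from 0.0600 and 0.0800 in the E13.5 to 0.337 and 0.334 in the E17.5 fibroblast libraries, while that of *Usp29* to *Peg3* was 0.0767 and 0.0460 and 0.0308 and 0.0369, given as a description. At E13.5 fibroblasts were lower than the mean of the 3 epithelial gates for *Peg3* (-0.42, adjusted p = 0.00492), *Usp29* (-0.86, adjusted p = 0.000334) and *Zim1* (-1.002, adjusted p = 0.00844), but they lay above the Sox2hi libraries for *Peg3* and *Zim1*. With the 2 compartments as the only groups none of these was called (adjusted p = 0.744, 0.276 and 0.586), and with the shared label style alone *Peg3* differed by -0.02 and *Zim1* by -0.21. Nor was any called without the E13.5 distal fibroblast library (adjusted p = 0.663, 0.204 and 0.0518).

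*H19*, a long noncoding RNA made from the maternal copy, and *Igf2*, the fetal growth factor made from the paternal copy, share enhancers on chromosome 7. At E13.5 *H19* was at 4153, 3729 and 4568 FPKM in Sox2hi, 5132 and 4028 in Sox2midGata4mid and 6767, 6204 and 7434 in Gata4hi cells, and *Igf2* at 1200.4, 1143 and 1487 FPKM in Sox2hi, 1319 and 1139 in Sox2midGata4mid and 1527, 1428 and 1672 in Gata4hi cells. *H19* was 1.64-fold higher in Gata4hi than in Sox2hi (log2 fold change 0.71, SE 0.12, adjusted p = 0.00399). This difference was lost with no filter on low values (adjusted p = 0.093) and with quantile normalization (adjusted p = 0.0692). It was lower in Sox2midGata4mid than in Gata4hi (log2 fold change -0.58, adjusted p = 0.028). This call was lost without any 1 of Sox2midGata4mid replicate 2 and Gata4hi replicates 1 and 3 (adjusted p 0.0701 to 0.173) and with no filter on low values, on the TPM scale, with quantile normalization, with no trend in the variances and with only the 2 groups compared in the fit (adjusted p 0.0529 to 0.514). *Igf2* did not pass between Gata4hi and Sox2hi (0.28, adjusted p = 0.132), though with a replicate block it did (adjusted p = 0.0178). The *H19* to *Igf2* ratio was 3.07 to 3.46 in Sox2hi, 3.54 to 3.89 in Sox2midGata4mid and 4.34 to 4.45 in Gata4hi libraries, without overlap, and 2.32 to 3.46 in fibroblasts, given as a description. Against the epithelium as a whole, *H19* in E13.5 fibroblasts was not called (-0.22, adjusted p = 0.152), but on the TPM scale (-0.61, adjusted p = 0.00211) and with quantile normalization (-0.50, adjusted p = 0.013) it was called lower. At E11.5 *H19* stood at 3811 and 4373 FPKM and *Igf2* at 1065 and 1154 in Sox2hi and Gata4hi cells.

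In fibroblasts both genes were again among the most abundant, *Igf2* at 1609, 1670.3 and 1475 FPKM in proximal and 1596, 959.9 and 657 in distal fibroblasts. *H19* was at 4026, 3868 and 4962 FPKM in proximal and 4614, 3106 and 2273 in distal fibroblasts. In distal fibroblasts both were lower at E15.5 and again at E17.5, whereas proximal values showed no such order. The change per day differed between regions by log2 -0.33 for *H19* and -0.29 for *Igf2* (distal minus proximal), but no gene of the 12900 tested was called for this term (adjusted p = 1 for both, with 7 of the 35 imprinted genes and 487 of all genes at an unadjusted p under 0.05 in limma). *Igf2* in fibroblasts against epithelium at E13.5 was not called (0.26, adjusted p = 0.0926), and its sign depended on the scale, with -0.13 on the TPM scale and -0.32 with quantile normalization.

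*Igf2r* encodes the mannose 6-phosphate receptor that removes IGF2, and *Airn* is the antisense RNA that silences its paternal copy. *Igf2r* was at 27.8, 27.6 and 29.3 FPKM in Sox2hi, 45.4 and 47.7 in Sox2midGata4mid and 31.6, 29.5 and 38.4 in Gata4hi cells, and *Airn* at 8.26, 7.76 and 4.81 FPKM in Sox2hi, 16.6 and 19.9 in Sox2midGata4mid and 6.51, 8.20 and 7.12 in Gata4hi cells. Both were highest in the Sox2midGata4mid libraries, with no overlap with either other gate at E13.5. *Igf2r* was higher there than in Sox2hi (0.70, adjusted p = 0.0149) and Gata4hi (0.49, adjusted p = 0.0333), as log2 fold changes. The first call was lost without any 1 of Sox2hi replicate 1 and Sox2midGata4mid replicates 1 and 2 (adjusted p 0.0533 to 0.0886). The second call was lost without any 1 of Sox2hi replicates 1 and 2, Sox2midGata4mid replicates 1 and 2 and Gata4hi replicates 1 and 2 (adjusted p 0.0553 to 0.155) and with no filter on low values, with no trend in the variances and with only the 2 groups compared in the fit (adjusted p 0.0539 to 0.0812). *Airn* was 2.46-fold above Sox2hi (log2 fold change 1.30, SE 0.21, adjusted p = 0.0141) and 2.33-fold above Gata4hi (log2 fold change 1.22, SE 0.21, adjusted p = 0.0109). The former was lost without any 1 of Sox2midGata4mid replicates 1 and 2 (adjusted p 0.0797 to 0.0849) and with only the 2 groups compared in the fit (adjusted p = 0.0559). The latter was lost without Sox2midGata4mid replicate 2 (adjusted p = 0.0885). Both genes overlap on opposite strands and the strand setting used in counting was not given, so their reads may have been counted to either.

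Fibroblasts held more *Igf2r* than the epithelium at E13.5 (log2 fold change 0.88, adjusted p = 0.000225), at 65.4, 72.4 and 84.7 FPKM in proximal and 66.0, 84.3 and 73.1 in distal fibroblasts. *Airn* did not pass in that comparison (0.14, adjusted p = 0.566) and was at 8.60, 14.3 and 9.05 FPKM in proximal and 13.4, 16.99 and 12.8 in distal fibroblasts. In E11.5 Sox2hi and Gata4hi cells *Igf2r* was at 34.6 and 27.1 FPKM and *Airn* at 5.50 and 4.57, and no stage change of either was called.

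*Grb10*, which encodes an adaptor that inhibits insulin and IGF receptors and is expressed from the maternal copy outside neurons, ran against the *Peg3* domain in the epithelium. It was at 489, 539 and 513 FPKM in Sox2hi, 383 and 488 in Sox2midGata4mid and 232, 175.3 and 249.6 in Gata4hi cells. Gata4hi cells had 2.36-fold less than Sox2hi (log2 fold change -1.24, SE 0.14, adjusted p = 0.000738), under every alternative. Sox2midGata4mid cells had more than Gata4hi (log2 fold change 0.99, adjusted p = 0.00858), and did not differ by the test from Sox2hi (-0.25, adjusted p = 0.424). The former call was lost without Sox2midGata4mid replicate 2 (adjusted p = 0.071). At E11.5 the order was the same, with 845 and 286 FPKM in Sox2hi and Gata4hi cells. *Ddc*, its neighbour on chromosome 11 and the enzyme that makes dopamine and serotonin from their precursors, showed the opposite pattern at E13.5, at 15.3, 21.2 and 21.1 FPKM in Sox2hi, 46.7 and 54.0 in Sox2midGata4mid and 54.0, 47.0 and 48.5 in Gata4hi cells. It was higher in Gata4hi (log2 fold change 1.34, adjusted p = 0.000384) and in Sox2midGata4mid (1.36, adjusted p = 0.00315) than in Sox2hi, under every alternative. At E11.5 both gates held it, at 55.5 and 49.9 FPKM, and it fell to E13.5 (log2 fold change -0.75, adjusted p = 0.018). The fall was lost without the E11.5 Sox2hi library (log2 fold change -0.0039, adjusted p = 1).

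In fibroblasts *Grb10* was at 463, 463 and 296 FPKM in proximal and 560.1, 573 and 398 in distal fibroblasts, and *Ddc* at 2.97, 1.79 and 2.18 FPKM in proximal and 9.12, 8.74 and 2.75 in distal fibroblasts. *Ddc* was 5.89-fold lower than in the epithelium at E13.5 (log2 fold change -2.56, adjusted p = 4.88e-06), the largest deficit among the imprinted genes in fibroblasts. *Grb10* was higher in fibroblasts by a small margin (0.49, adjusted p = 0.0238). That margin was lost without the E13.5 distal fibroblast library (log2 fold change 0.35, adjusted p = 0.173) and with no filter on low values, on the TPM scale, with quantile normalization and with the 2 compartments as the only groups (adjusted p 0.053 to 0.958). From E13.5 to E17.5 *Grb10* fell in fibroblasts (log2 fold change -0.57, adjusted p = 0.0135). This call was lost without any 1 of the E13.5 proximal, E13.5 distal, E15.5 proximal, E15.5 distal and E17.5 proximal fibroblast libraries (log2 fold change -0.62 to -0.50, adjusted p 0.0558 to 0.105) and with no filter on low values, on the TPM scale, with quantile normalization and with stage as a number (adjusted p 0.0506 to 0.205).

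*Mest*, *Dlk1* and *Peg10* are paternally expressed genes of chromosomes 6 and 12; *Mest* encodes an alpha/beta hydrolase family enzyme much used as a mesoderm marker, *Dlk1* a transmembrane Delta-like protein of progenitor cells and *Peg10* a retrotransposon-derived protein. All 3 were higher in Gata4hi than in both other gates at E13.5. *Dlk1* was at 16.2, 9.73 and 11.4 FPKM in Sox2hi, 14.7 and 10.99 in Sox2midGata4mid and 91.0, 100.3 and 43.7 in Gata4hi cells. It was 5.67-fold higher in Gata4hi than in Sox2hi (log2 fold change 2.50, SE 0.32, adjusted p = 0.00123), under every alternative. *Peg10* was at 4.98, 5.85 and 5.83 FPKM in Sox2hi, 4.14 and 5.08 in Sox2midGata4mid and 15.2, 21.4 and 13.7 in Gata4hi cells, and its 2.67-fold excess in Gata4hi over Sox2hi (log2 fold change 1.42, SE 0.17, adjusted p = 0.00084) held in the same way. *Mest* was lower, at 2.02, 3.16 and 4.36 FPKM in Sox2hi, 1.70 and 1.18 in Sox2midGata4mid and 9.44, 6.17 and 11.7 in Gata4hi cells, and 2.42-fold higher in Gata4hi than in Sox2hi (log2 fold change 1.28, SE 0.28, adjusted p = 0.014). That call was lost without Gata4hi replicate 1 (adjusted p = 0.0515). Against Gata4hi, Sox2midGata4mid cells were lower for *Dlk1* (log2 fold change -2.44, adjusted p = 0.00641), *Mest* (-2.02, adjusted p = 0.00699) and *Peg10* (-1.64, adjusted p = 0.00315). Without Sox2midGata4mid replicate 2 the first and second were not called (adjusted p = 0.0601 and 0.0621), and *Peg10* was called under every alternative.

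Fibroblasts express *Dlk1* and *Mest* strongly, and fibroblast markers differed between the gates in both directions. Of 8 tested, 1 was called higher and 3 lower in Gata4hi than in Sox2hi (14.9% and 6.7% of all genes). The 13 fibroblast markers summed to 80.8 to 118 FPKM in Sox2hi, 40.8 to 45.4 in Sox2midGata4mid and 56.9 to 77.6 in Gata4hi libraries. Without *Dcn*, which was at 57.1 to 97.4 in Sox2hi and 0.609 to 0.762 in Gata4hi, they summed to 20.9 to 23.9, 30.6 to 40.8 and 56.1 to 77.0 in the same order. *Fn1* made up most of the latter sum in Gata4hi, at 44.0 to 52.1 FPKM against 6.32 to 7.98 in Sox2hi and 153 to 205 in the E13.5 fibroblast libraries. *Pdgfra*, the marker of the fibroblast sort, was at 0.544 to 1.34 in Gata4hi, 0.354 to 0.439 in Sox2hi and 166 to 217 in these fibroblasts. *Nkx2-5* was at 0 in all Sox2hi libraries and in Gata4hi replicate 1. *Col1a1* was at 1.29 to 3.55 FPKM in Sox2hi and 1.94 to 2.98 in Gata4hi, and *Col3a1* at 2.36 to 4.73 and 4.41 to 13.1. *Twist1*, at 3.15 to 6.24 in Sox2hi and 0.0308 to 0.113 in Gata4hi, went the other way. So did *Pdgfrb*, at 1.86 to 3.06 and 0.0709 to 0.379. The 5 mesothelial markers summed to 1.39 to 1.94 FPKM in Sox2hi and 7.48 to 10.6 in Gata4hi cells, of which *Msln* made 0.721 to 0.857 and 6.93 to 9.86. *Wt1*, *Upk3b* and *Lrrn4* were near 0 in both. The part of either marker group in the differences of *Dlk1* and *Mest* was not tested.

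**Figure D2:**
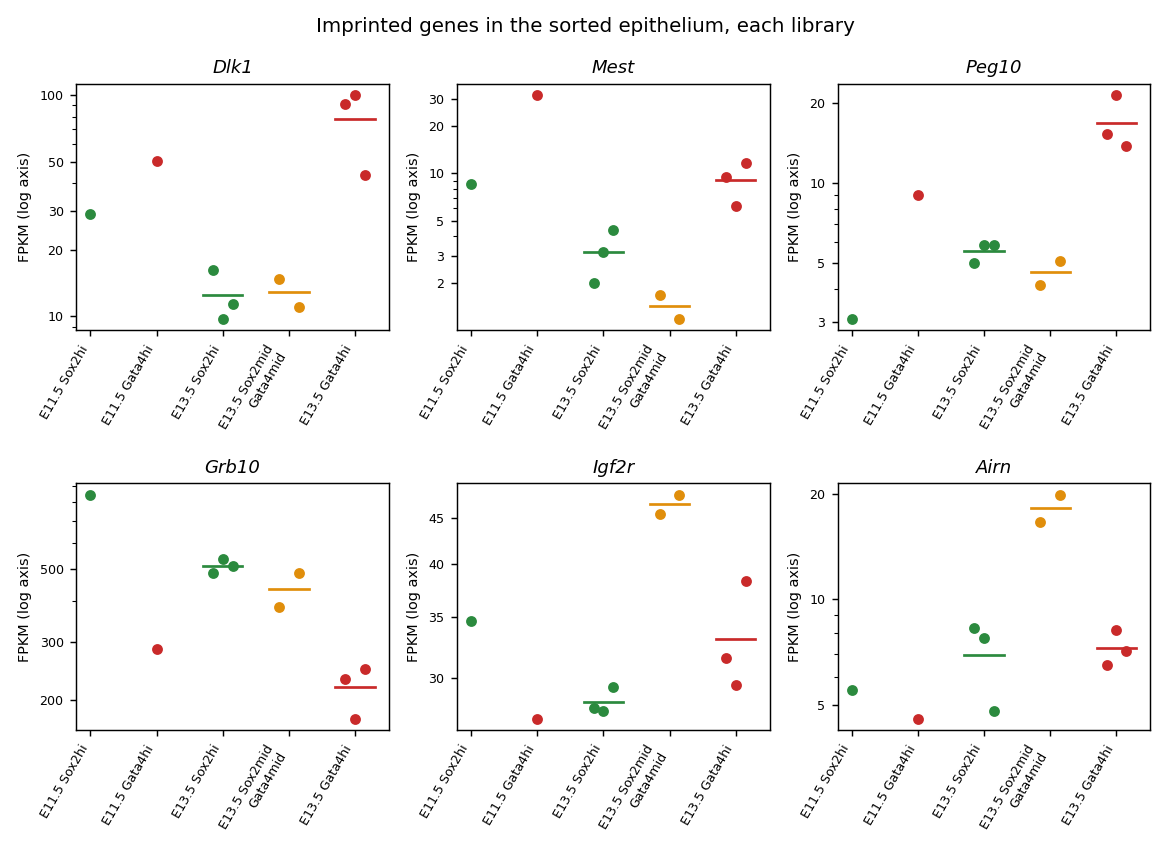
*Dlk1*, *Mest*, *Peg10*, *Grb10*, *Igf2r* and *Airn* in the epithelial libraries. Each point is 1 library, the vertical axis is FPKM on a log scale and the groups are the gates at E11.5 and E13.5; bars are means, and among the E13.5 libraries *Dlk1*, *Mest* and *Peg10* are highest in Gata4hi, *Grb10* is lowest there (175.3 to 249.6 FPKM), and *Igf2r* and *Airn* are highest in the Sox2midGata4mid libraries (*Airn* 16.6 to 19.9 FPKM).

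At E11.5 *Mest* was at 8.63 and 31.7 FPKM in Sox2hi and Gata4hi cells, *Dlk1* at 29.1 and 50.7 and *Peg10* at 3.08 and 8.96. *Mest* fell to E13.5 (log2 fold change -1.49, adjusted p = 0.0183), *Peg10* rose (0.75, adjusted p = 0.0357), and *Dlk1* did not pass (-0.33, adjusted p = 0.565). The call of *Mest* was lost without any 1 of the E11.5 Sox2hi and E11.5 Gata4hi libraries (log2 fold change -1.73 to -1.24, adjusted p 0.0798 to 0.102). That of *Peg10* was lost without any 1 of Sox2hi replicates 1, 2 and 3, Sox2midGata4mid replicates 1 and 2 and Gata4hi replicate 1 (adjusted p 0.0528 to 0.0717) and without any 1 of the E11.5 Sox2hi and E11.5 Gata4hi libraries (log2 fold change 0.68 to 0.81, adjusted p 0.14 to 0.156) and with no filter on low values (adjusted p = 0.0544). In fibroblasts *Mest* was at 264, 119 and 126 FPKM in proximal and 367, 208 and 216 in distal fibroblasts. Its 67.9-fold excess over the epithelium at E13.5 (log2 fold change 6.09, SE 0.27, adjusted p = 1.89e-06) was the largest of all imprinted genes tested. *Dlk1* followed with a 31.7-fold excess (log2 fold change 4.99, SE 0.32, adjusted p = 1.3e-05), at 861, 1255 and 1732 FPKM in proximal and 659, 937 and 1106 in distal fibroblasts. With time the 2 moved apart in fibroblasts. *Mest* fell between E13.5 and E15.5 (log2 fold change -0.98, adjusted p = 0.0392, 1 imprinted gene called against 2.78% of all genes, 1.12% lower) and was lower at E17.5 than at E13.5 (-0.91, adjusted p = 0.0092), whereas *Dlk1* rose from E13.5 to E17.5 (0.88, adjusted p = 0.00733). The E15.5 comparison was fitted with all 6 libraries only. The E17.5 call of *Mest* was lost without any 1 of the E13.5 proximal, E13.5 distal and E17.5 proximal fibroblast libraries (log2 fold change -1.07 to -0.76, adjusted p 0.0601 to 0.0793) and with stage as a number (adjusted p = 0.055). That of *Dlk1* was lost without any 1 of the E13.5 proximal and E13.5 distal fibroblast libraries (log2 fold change 0.80 to 0.95, adjusted p 0.0611 to 0.0804).

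*Copg2*, a coatomer subunit that overlaps the end of *Mest* on the opposite strand, went the other way, at 31.9, 33.3 and 40.8 FPKM in Sox2hi, 28.2 and 26.4 in Sox2midGata4mid and 23.1, 22.7 and 27.2 in Gata4hi cells. It was lower in Gata4hi than in Sox2hi (log2 fold change -0.52, adjusted p = 0.0167) and lower in fibroblasts than in epithelium (-0.72, adjusted p = 0.0013), at 16.2, 17.8 and 11.2 FPKM in proximal and 17.7, 12.7 and 11.4 in distal fibroblasts. The first call was lost without any 1 of Gata4hi replicates 1 and 2 (adjusted p 0.0608 to 0.0613). *Copg2* was at 39.1 and 31.3 FPKM in Sox2hi and Gata4hi cells at E11.5.

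*Peg10* shares its domain with *Sgce*, which encodes epsilon-sarcoglycan, and *Asb4*, an ankyrin repeat and SOCS box protein. *Sgce* was at 10.4, 9.71 and 9.49 FPKM in Sox2hi, 6.93 and 6.52 in Sox2midGata4mid and 9.19, 8.08 and 6.49 in Gata4hi cells and *Asb4* at 0.961, 1.02 and 1.09 FPKM in Sox2hi, 0.676 and 0.466 in Sox2midGata4mid and 1.01, 0.902 and 0.593 in Gata4hi cells. *Peg10* and *Sgce* start next to each other in opposite directions, yet *Sgce* did not pass between Gata4hi and Sox2hi (-0.29, adjusted p = 0.155), and the *Peg10* to *Sgce* ratio was 0.480 to 0.615 in Sox2hi and 1.65 to 2.65 in Gata4hi libraries. At E11.5 *Sgce* was at 7.26 and 12.4 FPKM and *Asb4* at 0.883 and 2.49 in Sox2hi and Gata4hi cells. Fibroblasts were higher than epithelium for *Asb4* (log2 fold change 2.32, adjusted p = 8.43e-06), *Sgce* (1.76, adjusted p = 1.81e-05) and *Peg10* (1.40, adjusted p = 0.000309). The call of *Peg10* was lost with the 2 compartments as the only groups (adjusted p = 0.0691). *Sgce* was at 33.0, 38.1 and 41.7 FPKM in proximal and 26.5, 38.4 and 54.5 in distal fibroblasts, and *Peg10* at 19.1, 17.4 and 10.4 FPKM in proximal and 24.8, 29.3 and 29.4 in distal fibroblasts. *Asb4* fell from E13.5 to E17.5 (log2 fold change -1.55, adjusted p = 0.0353), at 9.18, 2.76 and 1.14 FPKM in proximal and 6.86, 5.22 and 3.35 in distal fibroblasts. The fall of *Asb4* was lost without any 1 of the 6 fibroblast libraries (log2 fold change -2.18 to -0.93, adjusted p 0.0598 to 0.181) and with no filter on low values (adjusted p = 0.113) and on the TPM scale (adjusted p = 0.0638).

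*Meg3*, *Rian* and *Mirg* are noncoding RNAs transcribed from the maternal copy of the *Dlk1* domain on chromosome 12, the last hosting microRNAs and *Rian* snoRNAs. *Meg3* was at 48.8, 51.5 and 31.5 FPKM in Sox2hi, 29.7 and 42.8 in Sox2midGata4mid and 20.8, 37.4 and 17.2 in Gata4hi cells. *Rian* was at 192, 168 and 188 FPKM in Sox2hi, 83.5 and 112 in Sox2midGata4mid and 145, 136 and 108 in Gata4hi cells, and *Mirg* at 12.8, 10.2 and 12.6 FPKM in Sox2hi, 5.32 and 8.64 in Sox2midGata4mid and 9.71, 8.78 and 5.96 in Gata4hi cells. Unlike *Dlk1*, none of these 3 was called higher in Gata4hi. *Rian* was lower in Gata4hi (log2 fold change -0.50, adjusted p = 0.0436) and in Sox2midGata4mid (-0.91, adjusted p = 0.0199) than in Sox2hi, and *Meg3* (-0.83, adjusted p = 0.103) and *Mirg* (-0.51, adjusted p = 0.143) did not pass between Gata4hi and Sox2hi. The first call of *Rian* was lost without any 1 of Sox2hi replicates 1, 2 and 3 and Gata4hi replicates 1, 2 and 3 (adjusted p 0.0502 to 0.124) and with no filter on low values, with no trend in the variances and with a replicate block (adjusted p 0.0681 to 0.0933). The second was lost without any 1 of Sox2hi replicates 1 and 3 and Sox2midGata4mid replicate 1 (adjusted p 0.0625 to 0.134) and with no filter on low values (adjusted p = 0.0541) and with a replicate block (adjusted p = 0.0503). With a replicate block *Meg3* passed (adjusted p = 0.0128). From E11.5, where *Meg3* stood at 12.9 and 14.0, *Rian* at 71.7 and 111 and *Mirg* at 3.36 and 7.90 FPKM in Sox2hi and Gata4hi cells, *Rian* rose (log2 fold change 0.78, adjusted p = 0.0191). This rise was lost without the E11.5 Sox2hi library (log2 fold change 0.22, adjusted p = 0.67).

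In fibroblasts *Rian* was at 413, 287 and 388 FPKM in proximal and 360.0, 288 and 247 in distal fibroblasts. *Mirg* was at 37.3, 17.3 and 27.3 FPKM in proximal and 31.0, 23.0 and 10.7 in distal fibroblasts, and *Meg3* at 22.5, 32.7 and 51.1 FPKM in proximal and 28.8, 41.3 and 38.0 in distal fibroblasts. *Rian* (log2 fold change 1.54, adjusted p = 8.46e-05) and *Mirg* (1.86, adjusted p = 0.000256) exceeded the epithelium at E13.5, whereas *Meg3* did not pass (-0.37, adjusted p = 0.346). The *Rian* to *Meg3* ratio, at 2.62 to 6.99 in the E13.5 epithelial libraries and 6.48 to 18.4 in fibroblasts, overlapped between compartments and is given as a description. *Rtl1*, the paternally expressed retrotransposon-derived gene of this domain, reached at most 1.74 FPKM in fibroblasts and was below 0.1 FPKM in every epithelial library.

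The *Kcnq1ot1* domain on chromosome 7 holds *Cdkn1c*, which encodes the cell cycle inhibitor p57, *Phlda2*, a pleckstrin homology protein that limits placental growth, *Slc22a18*, a membrane transporter, *Ascl2*, and the silencing RNA *Kcnq1ot1*. *Cdkn1c* was at 233, 269.9 and 220.2 FPKM in Sox2hi, 229.9 and 248 in Sox2midGata4mid and 202, 185 and 198 in Gata4hi cells. Its difference between Gata4hi and Sox2hi (log2 fold change -0.30, SE 0.09, adjusted p = 0.0466) was small. It was lost without any 1 of Sox2hi replicates 1 and 2, Sox2midGata4mid replicates 1 and 2 and Gata4hi replicates 1, 2 and 3 (adjusted p 0.0636 to 0.138) and with no filter on low values, with no trend in the variances, with a replicate block and with only the 2 groups compared in the fit (adjusted p 0.0621 to 0.0926). Between Sox2midGata4mid and Gata4hi *Cdkn1c* was not called in the fit used. Under 2 of 16 alternatives it was called higher in Sox2midGata4mid (lowest adjusted p = 0.0145 in limma). *Slc22a18* was at 2.60, 3.21 and 2.30 FPKM in Sox2hi, 5.31 and 3.64 in Sox2midGata4mid and 5.49, 6.20 and 5.56 in Gata4hi cells, and higher in Gata4hi than in Sox2hi (log2 fold change 0.87, SE 0.16, adjusted p = 0.00707), under every alternative. *Phlda2*, at 1.18, 1.90 and 0.995 FPKM in Sox2hi, 4.21 and 5.89 in Sox2midGata4mid and 2.49, 1.52 and 2.33 in Gata4hi cells, was highest in Sox2midGata4mid, above Sox2hi (log2 fold change 1.36, adjusted p = 0.0216) and Gata4hi (0.96, adjusted p = 0.0428). The first call was lost without any 1 of Sox2hi replicates 1 and 3 and Sox2midGata4mid replicates 1 and 2 (adjusted p 0.0609 to 0.106) and with no filter on low values, with a replicate block and with only the 2 groups compared in the fit (adjusted p 0.0617 to 0.0706). The second was lost without any 1 of Sox2hi replicate 1, Sox2midGata4mid replicates 1 and 2 and Gata4hi replicates 1, 2 and 3 (adjusted p 0.0648 to 0.211) and with a pseudocount of 0.1 FPKM, with no filter on low values, with quantile normalization, with a replicate block and with only the 2 groups compared in the fit (adjusted p 0.0508 to 0.103).

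*Kcnq1ot1* was at 3.39, 3.996 and 2.06 FPKM in Sox2hi, 4.35 and 4.81 in Sox2midGata4mid and 2.32, 3.44 and 2.23 in Gata4hi cells, and no gate difference was called. At E11.5 *Cdkn1c* was at 277 and 199.9 FPKM, *Phlda2* at 3.63 and 2.78, *Slc22a18* at 1.79 and 6.04 and *Kcnq1ot1* at 1.43 and 1.10 in Sox2hi and Gata4hi cells. Genes of the domain differed in direction between compartments. *Cdkn1c* was 3.44-fold higher in fibroblasts at E13.5 (log2 fold change 1.78, SE 0.08, adjusted p = 2.71e-06), at 967, 765 and 1116 FPKM in proximal and 617, 447 and 783 in distal fibroblasts. *Slc22a18* (log2 fold change -1.82, adjusted p = 6.01e-05) and *Kcnq1ot1* (-1.32, adjusted p = 0.00148) were lower in fibroblasts. *Slc22a18* was at 0.991, 0.219 and 0.485 FPKM in proximal and 0.0505, 0.333 and 0.241 in distal fibroblasts, and *Kcnq1ot1* at 0.819, 0.765 and 1.35 FPKM in proximal and 0.656, 0.815 and 0.959 in distal fibroblasts. *Phlda2* did not pass in this comparison (0.26, adjusted p = 0.311), at 4.83, 0.672 and 0.0737 FPKM in proximal and 2.04, 1.25 and 1.58 in distal fibroblasts. *Cdkn1c* rose in fibroblasts between E15.5 and E17.5 (log2 fold change 0.68, adjusted p = 0.0495, the 1 imprinted gene called against 3.16% of all genes), after values at E15.5 that were below those at E13.5 in both regions. This comparison was fitted with all 6 libraries only.

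*Plagl1*, a zinc finger transcription factor gene of chromosome 10, changed most with stage in the epithelium. It was at 6.27 and 4.302 FPKM in Sox2hi and Gata4hi cells at E11.5, and at 36.3, 33.6 and 45.5 FPKM in Sox2hi, 39.1 and 22.8 in Sox2midGata4mid and 38.3, 34.9 and 45.3 in Gata4hi cells at E13.5. The rise was 6.40-fold (log2 fold change 2.68, SE 0.21, adjusted p = 0.00132), and no gate difference was called. Fibroblasts held 11.48-fold more at E13.5 (log2 fold change 3.52, SE 0.21, adjusted p = 7.75e-06), at 394, 350.2 and 478 FPKM in proximal and 444, 285 and 373 in distal fibroblasts. The E13.5 to E17.5 difference in fibroblasts did not pass (0.01, adjusted p = 0.959).

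*Gnas*, which encodes the stimulatory G protein alpha subunit and whose count adds transcripts of differing parental origin, was at 598, 536 and 605 FPKM in Sox2hi, 519 and 537 in Sox2midGata4mid and 714, 716 and 697 in Gata4hi cells. It was called higher in Gata4hi than in Sox2hi (log2 fold change 0.29, adjusted p = 0.0136) and lower in Sox2midGata4mid than in Gata4hi (-0.42, adjusted p = 0.00916), by less than 1.5-fold in each. The first call was lost on the TPM scale, with quantile normalization and with no trend in the variances (adjusted p 0.0526 to 0.241). The second was lost without any 1 of Sox2midGata4mid replicates 1 and 2 (adjusted p 0.0539 to 0.0552) and on the TPM scale (adjusted p = 0.204) and with quantile normalization (adjusted p = 0.657). At E11.5 it was at 653 and 715 FPKM in Sox2hi and Gata4hi cells. Fibroblasts had more (0.67, adjusted p = 6.89e-05), at 938, 1152 and 1456 FPKM in proximal and 978, 956 and 1257 in distal fibroblasts. *Gnas* rose from E13.5 to E17.5 (0.50, adjusted p = 0.029). That call was lost without any 1 of the 6 fibroblast libraries (log2 fold change 0.35 to 0.65, adjusted p 0.0669 to 0.147) and with no filter on low values (adjusted p = 0.155) and with no trend in the variances (adjusted p = 0.0748).

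*Nnat*, a small endoplasmic reticulum proteolipid gene on chromosome 2, fell furthest of the imprinted genes in fibroblasts. It was at 131, 40.7 and 31.0 FPKM in proximal and 249.7, 129 and 39.5 in distal fibroblasts. Between E13.5 and E17.5 it fell 5.05-fold (log2 fold change -2.34, SE 0.32, adjusted p = 0.00934). The fall was lost without any 1 of the E13.5 proximal and E13.5 distal fibroblast libraries (log2 fold change -2.37 to -2.30, adjusted p 0.0769 to 0.0958). At E13.5 fibroblasts exceeded the epithelium (log2 fold change 1.27, adjusted p = 0.00159), where it was at 123, 113 and 73.3 FPKM in Sox2hi, 62.7 and 67.5 in Sox2midGata4mid and 71.0, 68.9 and 50.1 in Gata4hi cells. Between Gata4hi and Sox2hi it did not pass (-0.67, adjusted p = 0.0562), though it did with a replicate block, on the TPM scale, with quantile normalization or with a mean of at least 5 FPKM required (adjusted p 0.00363 to 0.04995), and without Sox2hi replicate 3 (adjusted p = 0.00995). With a replicate block it was also lower in Sox2midGata4mid than in Sox2hi (adjusted p = 0.0155, against 0.178 without). At E11.5 it stood at 124 and 132 FPKM in Sox2hi and Gata4hi cells.

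The *Snrpn* to *Ube3a* domain on chromosome 7, the mouse counterpart of the Prader-Willi and Angelman region, gave *Snrpn* (a spliceosomal protein), *Ndn* and *Magel2* (MAGE proteins), *Mkrn3* (a RING finger protein) and *Ube3a* (a ubiquitin ligase). No gate difference was called for any of them at E13.5 in the fit used. *Snrpn* was called lower in Gata4hi than in Sox2hi under 2 of 16 alternatives (lowest adjusted p = 0.0207 in limma). *Snrpn* was at 11.9, 11.9 and 11.4 FPKM in Sox2hi, 10.2 and 9.36 in Sox2midGata4mid and 9.79, 7.71 and 9.84 in Gata4hi cells, and *Ndn* at 7.47, 7.34 and 6.79 FPKM in Sox2hi, 7.32 and 5.95 in Sox2midGata4mid and 7.37, 6.29 and 6.59 in Gata4hi cells. From E11.5, with *Snrpn* at 20.3 and 14.0 and *Ndn* at 10.4 and 11.8 FPKM in Sox2hi and Gata4hi cells, both fell (log2 fold change -0.66, adjusted p = 0.0133 for *Snrpn* and -0.60, adjusted p = 0.0175 for *Ndn*). The fall of *Snrpn* was lost without the E11.5 Sox2hi library (log2 fold change -0.58, adjusted p = 0.128). That of *Ndn* was lost without any 1 of the E11.5 Sox2hi and E11.5 Gata4hi libraries (log2 fold change -0.73 to -0.48, adjusted p 0.0728 to 0.118). *Ndn* was 5.36-fold higher in fibroblasts than in epithelium (log2 fold change 2.42, SE 0.10, adjusted p = 1.63e-06), at 41.9, 45.7 and 44.9 FPKM in proximal and 40.1, 39.3 and 36.5 in distal fibroblasts. *Snrpn* was not called there (-0.11, adjusted p = 0.417; on the TPM scale it was called at -0.48) and was at 9.41, 5.63 and 1.87 FPKM in proximal and 9.22, 7.58 and 4.09 in distal fibroblasts.

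With stage in fibroblasts *Snrpn* fell 2.70-fold (log2 fold change -1.43, SE 0.25, adjusted p = 0.0154), while *Ndn* did not pass (-0.02, adjusted p = 0.93). The call of *Snrpn* was lost without any 1 of the E13.5 proximal, E13.5 distal, E15.5 proximal, E15.5 distal and E17.5 proximal fibroblast libraries (log2 fold change -1.75 to -1.11, adjusted p 0.0531 to 0.103) and with no filter on low values (adjusted p = 0.0581). *Mkrn3* fell as well (log2 fold change -1.42, adjusted p = 0.0197), at 2.92, 1.503 and 0.576 FPKM in proximal and 3.27, 1.56 and 0.475 in distal fibroblasts. Its call was lost without any 1 of the 6 fibroblast libraries (log2 fold change -1.51 to -1.34, adjusted p 0.0568 to 0.101). In the E13.5 epithelium *Mkrn3* was at 1.56, 1.26 and 1.07 FPKM in Sox2hi, 1.40 and 0.909 in Sox2midGata4mid and 1.27, 0.899 and 1.01 in Gata4hi cells, and at 1.23 and 0.842 FPKM in the E11.5 Sox2hi and Gata4hi cells, below fibroblasts (0.92, adjusted p = 0.00182). *Ube3a* was called in none of the 7 comparisons, at 41.8, 38.8 and 36.4 FPKM in Sox2hi, 40.6 and 28.1 in Sox2midGata4mid and 44.3, 32.6 and 35.2 in Gata4hi cells, 38.2 and 32.2 FPKM at E11.5 and 40.4, 40.8 and 31.7 FPKM in proximal and 42.4, 49.7 and 35.3 in distal fibroblasts.

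**Figure D3:**
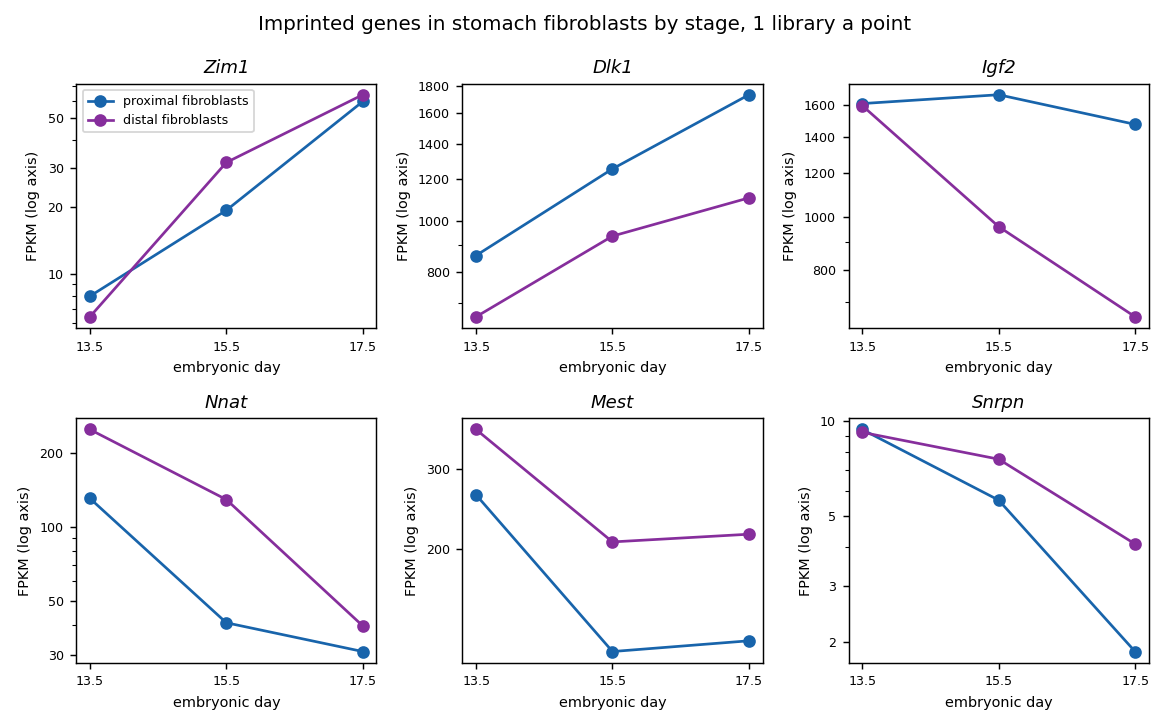
*Zim1*, *Dlk1*, *Igf2*, *Nnat*, *Mest* and *Snrpn* in fibroblasts by stage. The horizontal axis is embryonic day, the vertical axis FPKM on a log scale, and each point is 1 library of proximal or distal fibroblasts; *Zim1* climbs in both regions (to 59.6 FPKM proximal and 63.9 distal at E17.5), *Nnat* falls in both and *Igf2* falls in distal libraries.

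The remaining genes were called mainly between compartments and between fibroblast stages, where 54.6% and 37.1% of all genes were called. *Impact*, an inhibitor of the kinase GCN2, was at 8.01, 8.40 and 8.77 FPKM in Sox2hi, 9.34 and 9.48 in Sox2midGata4mid and 8.28, 6.90 and 7.88 in Gata4hi cells and at 19.5, 14.4 and 10.2 FPKM in proximal and 19.1, 15.7 and 11.4 in distal fibroblasts. It was higher in fibroblasts (log2 fold change 1.10, adjusted p = 4.69e-05) and fell in them from E13.5 to E17.5 (-0.78, adjusted p = 0.014). The fall was lost without any 1 of the 6 fibroblast libraries (log2 fold change -0.86 to -0.70, adjusted p 0.0524 to 0.103) and on the TPM scale (adjusted p = 0.0607). *Commd1*, a COMM domain protein gene whose intron holds the retrogene *Zrsr1*, was at 92.1, 82.8 and 90.8 FPKM in Sox2hi, 77.9 and 65.0 in Sox2midGata4mid and 91.6, 93.7 and 88.4 in Gata4hi cells and at 166, 119.8 and 90.4 FPKM in proximal and 139, 116 and 97.2 in distal fibroblasts. It was higher in fibroblasts (0.86, adjusted p = 8.93e-05), fell there with stage (-0.69, adjusted p = 0.0176) and was called lower in Sox2midGata4mid than in Gata4hi (-0.35, adjusted p = 0.0493). The stage call was lost without any 1 of the E13.5 proximal, E13.5 distal, E15.5 proximal, E15.5 distal and E17.5 proximal fibroblast libraries (log2 fold change -0.83 to -0.55, adjusted p 0.0606 to 0.115) and on the TPM scale (adjusted p = 0.0952). The gate call was lost without any 1 of Sox2hi replicates 1, 2 and 3, Sox2midGata4mid replicate 2 and Gata4hi replicates 1, 2 and 3 (adjusted p 0.063 to 0.229) and with no filter on low values, on the TPM scale, with quantile normalization, with no trend in the variances, with a replicate block and with only the 2 groups compared in the fit (adjusted p 0.0694 to 0.671). *Zrsr1* was at 3.16, 3.81 and 3.85 FPKM in Sox2hi, 3.61 and 2.69 in Sox2midGata4mid and 3.68, 4.12 and 2.98 in Gata4hi cells and at 6.97, 5.04 and 6.02 FPKM in proximal and 5.57, 7.75 and 5.08 in distal fibroblasts, higher in fibroblasts (0.71, adjusted p = 0.00486). The *Zrsr1* call was lost without the E13.5 proximal fibroblast library (log2 fold change 0.57, adjusted p = 0.0573) and on the TPM scale (adjusted p = 0.0559).

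*Trappc9*, a trafficking protein particle subunit gene that hosts *Peg13*, was at 7.45, 7.26 and 8.22 FPKM in Sox2hi, 6.18 and 6.73 in Sox2midGata4mid and 7.71, 7.49 and 7.91 in Gata4hi cells and at 10.4, 7.33 and 8.03 FPKM in proximal and 9.36, 7.29 and 7.85 in distal fibroblasts. It was called higher in fibroblasts at E13.5 (0.40, adjusted p = 0.00665). The *Trappc9* call was lost without the E13.5 proximal fibroblast library (log2 fold change 0.33, adjusted p = 0.0672) and on the TPM scale (adjusted p = 0.646). *Zdbf2*, a zinc finger gene of chromosome 1, was at 5.90, 6.45 and 3.63 FPKM in Sox2hi, 5.76 and 7.58 in Sox2midGata4mid and 4.302, 6.88 and 4.98 in Gata4hi cells and at 4.79, 3.80 and 2.44 FPKM in proximal and 7.71, 6.53 and 3.80 in distal fibroblasts, and fell in fibroblasts from E13.5 to E17.5 (-0.81, adjusted p = 0.0245). The *Zdbf2* call was lost without any 1 of the 6 fibroblast libraries (log2 fold change -0.87 to -0.74, adjusted p 0.071 to 0.121) and with no filter on low values (adjusted p = 0.0866) and on the TPM scale (adjusted p = 0.0827). At E11.5 *Impact* was at 11.54 and 7.55 FPKM, *Commd1* at 94.3 and 90.8, *Zrsr1* at 3.20 and 4.60, *Trappc9* at 6.72 and 8.91 and *Zdbf2* at 7.38 and 6.48 in Sox2hi and Gata4hi cells.

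Across compartments at E13.5, 19 of 35 imprinted genes tested were called higher in fibroblasts and 7 lower (30.9% and 23.7% of all genes). By size of difference, the higher ones were led by *Mest*, *Dlk1*, *Plagl1*, *Ndn*, *Asb4* and *Mirg*. The lower ones were *Ddc*, *Slc22a18*, *Kcnq1ot1*, *Zim1*, *Usp29*, *Copg2* and *Peg3*. *Zim1*, *Usp29* and *Peg3* are of 1 domain. Their calls were lost with the 2 compartments as the only groups or without the E13.5 distal fibroblast library. For *Peg3* and *Zim1* the E13.5 fibroblasts lay above the Sox2hi libraries. Fibroblasts at E13.5 are 1 library of each region. With only the 4 libraries of the shared label style there were 12 calls where all libraries gave 26, and *Slc22a18*, *Kcnq1ot1*, *Peg3*, *Usp29*, *Zim1*, *Copg2*, *Grb10*, *Ddc*, *Gnas*, *Nnat*, *Mkrn3*, *Peg10*, *Zrsr1* and *Trappc9* kept their sign without being called. The same restriction, also to 4 libraries, left 0 of the 10 calls between E13.5 and E11.5 epithelium, although all 10 genes kept their sign, from -2.24 for *Zim1* to 2.90 for *Plagl1*. Whether the label style had a part in these differences was not tested beyond this.

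**Figure D4:**
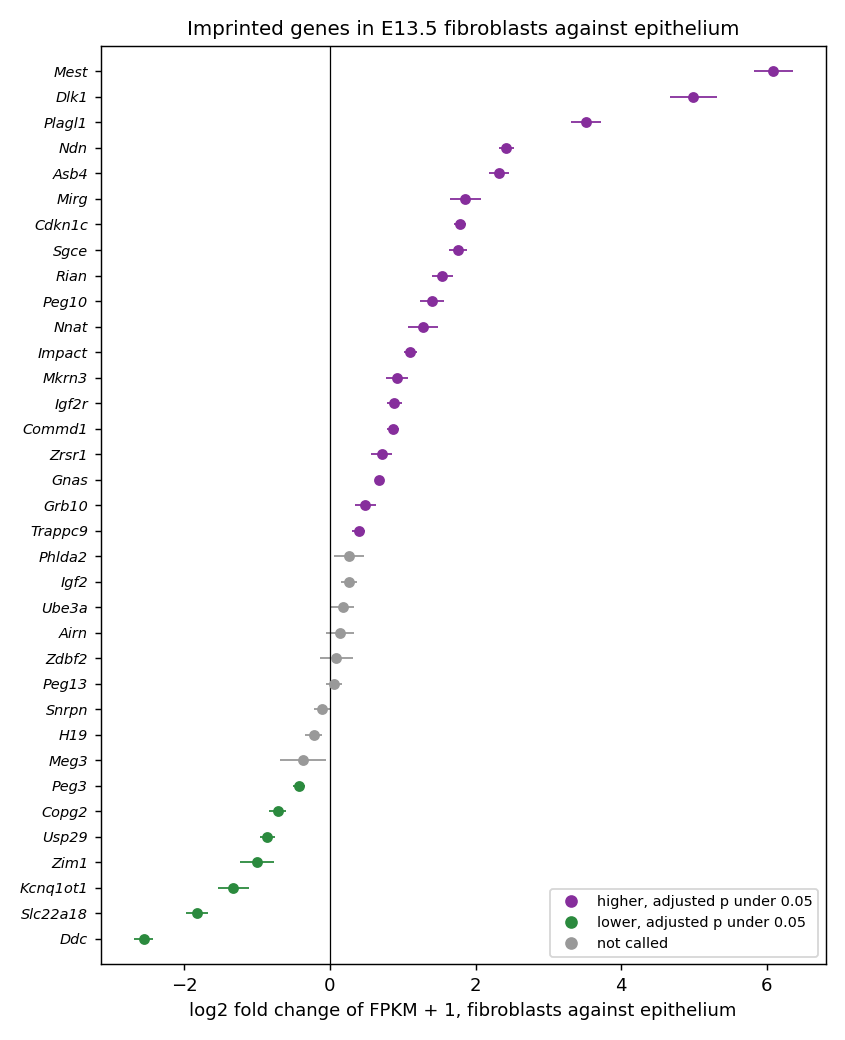
Difference of each of the 35 imprinted genes tested between fibroblasts and epithelium at E13.5. Points are log2 fold changes on log2(FPKM + 1) with bars of 1 SE, and genes right of 0 are higher in fibroblasts; *Mest* (6.09) and *Dlk1* (4.99) lie furthest right and *Ddc* (-2.56) furthest left.

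Between distal and proximal fibroblasts, with stage as a term, limma called 0 of 35 imprinted genes and 0 of 12900 genes in all, and the smallest adjusted p of any gene was 0.190. At an unadjusted p under 0.05 there were 10 imprinted genes and 1287 of all genes. The largest difference was that of *Ddc* (log2 fold change 1.13, SE 0.34, adjusted p = 0.406), which was higher in the distal library at each of the 3 stages. *Nnat* (0.97, adjusted p = 0.39), *Peg10* (0.83, adjusted p = 0.39) and *Mest* (0.68, adjusted p = 0.276) were also higher in every distal library than in the proximal library of its stage, and *Cdkn1c* (-0.64, adjusted p = 0.243), *Dlk1* (-0.48, adjusted p = 0.317) and *Igf2* (-0.66, adjusted p = 0.471) lower, none of them past the threshold.

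At E11.5, where each gate is 1 library and the difference is described without a test, 6 of 35 imprinted genes were at least 2-fold higher (*Mest*, *Zim1*, *Slc22a18*, *Peg10*, *Peg3* and *Mirg*) and 1 lower (*Grb10*) in Gata4hi than in Sox2hi on FPKM + 1, against 8.76% of all genes in either direction (4.9% higher and 3.86% lower). At E13.5, 6 of these 7 were called in the same direction and *Mirg* was not (-0.51, adjusted p = 0.143).

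Genes outside the 39 were read through 3 lists, also chosen with earlier results of these data known, so their shares are a description. Shares of all genes given with these lists are from the fit on FPKM, not from the TPM scale. Of all genes called, 69.0% were higher in Gata4hi than in Sox2hi in that fit and 47.6% on the TPM scale. For fibroblasts against epithelium these were 56.6% and 29.7%, and for E17.5 against E13.5 fibroblasts 26.9% and 56.4%. Of 36 further imprinted genes, 4 were higher and 7 lower in Gata4hi than in Sox2hi (21 tested), led by *Slc38a4* (log2 fold change -1.28), an amino acid transporter, *Pon2* (-0.95), a paraoxonase, and *Cobl* (-0.87), an actin nucleator. In the same fit 14.9% of all genes were higher and 6.7% lower. On the TPM scale the counts of the list were 1 and 7. In fibroblasts 9 of 20 were higher and 3 lower than in the epithelium (30.9% and 23.7% of all genes, and 5 and 6 of the list on the TPM scale), led by *Slc38a4* (1.89), the tetraspanin gene *Cd81* (1.89) and *Cobl* (1.52). From E13.5 to E17.5 in fibroblasts 4 of 23 rose and 2 fell (9.96% and 27.1% of all genes, and 7 and 2 of the list on the TPM scale), led by *Dio3* (2.197), which encodes the thyroid hormone deiodinase of the *Dlk1* domain, *Tnfrsf23* (1.96) and *Cobl* (-1.85). No call between E17.5 and E13.5 fibroblasts, in this or the other lists, remained when either E13.5 fibroblast library was left out. The median log2 change of this list was -0.14, 0.30 and -0.14 in these comparisons, against 0.08, 0.08 and -0.31 over all genes.

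Factors that set or keep imprints, such as DNA methyltransferases, *Trim28* and *Zfp57*, were tested for 16 genes. Of these, 0 rose and 12 fell in fibroblasts from E13.5 to E17.5 (9.96% and 27.1% of all genes), led by *Hells* (log2 fold change -1.10), a chromatin remodeler of DNA methylation, *Trim28* (-0.98), a corepressor, and *Dnmt3a* (-0.87), a de novo methyltransferase. On the TPM scale 3 fell and with quantile normalization 6. Against the epithelium at E13.5 fibroblasts were lower for 8 and higher for 1 (23.7% and 30.9% of all genes), led by *Dnmt3b* (-1.28), *Zfp57* (1.19) and *Tet3* (-1.10). On the TPM scale they were lower for 13 and with quantile normalization for 10, each with 1 higher. Between Gata4hi and Sox2hi 1 was higher and 0 lower, but 0 and 3 on the TPM scale. The medians of the list were -0.66, -0.20 and 0.04, against -0.31, 0.08 and 0.08 over all genes.

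The last list held genes that act on IGF2 mRNA or receive IGF2, with *Igf1*, *Hmga1* and *Hmga2*. Of 8 tested, 7 were called higher in Gata4hi than in Sox2hi (14.9% higher and 6.7% lower of all genes, and 5 higher and 1 lower of the list on the TPM scale), led by *Insr* (log2 fold change 0.81), *Lin28b* (0.79) and *Hmga2* (0.60). In fibroblasts 5 of 8 fell from E13.5 to E17.5 and 1 rose (27.1% and 9.96% of all genes, and 4 and 2 of the list on the TPM scale), led by *Hmga2* (-5.28), *Hmga1* (-3.84) and *Igf2bp1* (-2.42), which encodes a protein that binds *Igf2* mRNA. *Igf2* itself did not pass over these stages (-0.70, adjusted p = 0.115). Against the epithelium at E13.5 fibroblasts were higher for 2 and lower for 5 of 9 (30.9% and 23.7% of all genes). These were led by *Igf1* (6.08), *Hmga1* (-1.68) and *Igf2bp1* (-1.14), and on the TPM scale the counts were 2 and 7. The medians of this list were 0.55, -1.21 and -0.43 in these comparisons, against 0.08, -0.31 and 0.08 over all genes.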

How the data were processed

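The authors deposited 1 table of FPKM values per gene for the 16 libraries, made from stranded polyA libraries sequenced as single reads. The submitters' processing notes name Cufflinks 2.2.1, HISAT2 2.1.0, cutadapt 1.16 and the build mm10. How strand was treated in counting is not given in the sources used here, and 16 of the 39 genes overlap a gene on the opposite strand in the annotation, among them *Mest* and *Copg2*, and *Kcnq1ot1*, so that their reads could be counted to either. *Igf2r*, *Airn* and *Impact* had no entry in the annotation used for this count. The 16 therefore leave out *Igf2r* and *Airn*, which overlap each other on opposite strands. Of 53773 entries, 1 without a value and 61 repeats of an identifier were dropped, leaving 53711 genes; no per-sample column was left unused.

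FPKM values were tested as log2(FPKM + 1) with limma 3.58.1 in R 4.3.3, for genes whose mean FPKM over a fit's libraries was 1 or more, with a trend in the variances and Benjamini-Hochberg adjustment over all genes tested. Groups were the labelled gates, stages and regions; E13.5 gates, the epithelium, E13.5 and the fibroblasts each had 1 fit. Where a fit held replicated groups, single libraries were taken to vary like these. The fibroblast fit held none, and its spread is what region and stage added together do not describe. Read counts behind the FPKM values are unknown. Steps in low values gave relative depths of 0.393 to 1.07 against Sox2hi replicate 1, the lowest for the E13.5 proximal fibroblast library. Of the ratios 24.2 to 31.4% lay on whole-read steps (within 0.05%), against 0.133 to 0.475% on steps shifted as a control. Most ratios lay on no such step, so counts were not rebuilt and no count test was run. On simulated data with 200 of the genes changed, the fits found 76.4 to 83.8% of 2-fold and 97.0 to 98.8% of 4-fold changes, with 3.48 to 8.07% of calls false (lowest to highest over the fits of gates, epithelial stages, E13.5 compartments and fibroblasts). The highest false share was that of the fibroblast fit. In the data 54.6% of genes were called between compartments and 37.1% between E17.5 and E13.5 fibroblasts, so these rates describe a setting with fewer changed genes. The main fits of the gates used no pairing, and the replicate block was run as an alternative. Whether replicate numbers pair the E13.5 Sox2hi and Gata4hi libraries is not given by any label. Deviations from group means correlated at 0.113, 0.119 and 0.163 for the 3 same-numbered pairs and at -0.0993 to -0.0156 for the others. Deviations within a group cancel, so positive values of the same-numbered pairs push the others down. Replicate 3 of both gates also shares a label style. Sox2midGata4mid replicates 1 and 2 correlated with their same-numbered libraries at 0.0971 and 0.0854 for Sox2hi and at 0.157 and 0.132 for Gata4hi. Deviations of these 2 libraries are exact opposites, so such values are not separate cases and do not settle the pairing. Alternatives were another pseudocount, filter, scale and variance model, a replicate block, fewer groups, each E13.5 epithelial library left out, and libraries of 1 label style; stage as a number for the comparison of regions, and leaving out each fibroblast or E11.5 library, were chosen after seeing the data. The 39 genes and the gene lists were chosen with earlier results of these data known. Values in every library are given for genes called in a comparison or with a mean of at least 20 FPKM in the epithelium or the fibroblasts; of other genes, at most 3 per list, with the largest change among those called. Promoter windows are RefSeq sequences on GRCm38.p6, matched by symbol.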

Additional observations from a re-analysis of the deposited data

Results flagged for a closer look

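The difference of *Peg3* between Gata4hi and Sox2hi cells was larger at E13.5 than at E11.5. On log2(FPKM + 1) it was 2.50 at E13.5 (3 libraries each) and 1.06 at E11.5 (1 library each), and the difference of the 2 was 1.44 (SE 0.18, adjusted p = 0.018 in limma over all genes tested), called for 1.17% of all genes. *Peg3* in Sox2hi cells went from 228 FPKM at E11.5 to 51.0, 50.04 and 41.0 at E13.5, and in Gata4hi cells from 475 to 279, 271 and 263. The E11.5 Gata4hi library also held blood markers at 54.2 FPKM, against at most 1.70 in the E13.5 epithelial libraries; their part in the difference was not tested. *Gata4* in Sox2hi cells was at 25.9 FPKM at E11.5 and at 3.21 to 7.26 at E13.5, and the part of this was not tested either.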

How the results depend on the processing

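No call of an imprinted gene changed direction in any of the alternatives run, over 82 calls in 6 comparisons, and distal against proximal fibroblasts gave 0 calls in all of them. Calls kept under every alternative numbered 8 of 14 for Gata4hi against Sox2hi, 4 of 8 for Sox2midGata4mid against Sox2hi, 1 of 11 for Sox2midGata4mid against Gata4hi, 0 of 10 for the epithelial stages, 12 of 26 for fibroblasts against epithelium and 0 of 13 for E17.5 against E13.5 fibroblasts. Sox2midGata4mid against Gata4hi gave 11 calls in the fit used, 6 with no filter, 7 with quantile normalization, 7 with no trend, 7 with only the 2 groups, and 1 to 10 when 1 library was left out, the lowest without Sox2midGata4mid replicate 2. Left-out libraries gave 4 to 8 calls for Sox2midGata4mid against Sox2hi, 10 to 15 for Gata4hi against Sox2hi, 3 to 11 for the epithelial stages, 22 to 27 for fibroblasts against epithelium and 0 to 8 for E17.5 against E13.5 fibroblasts, where the proximal and the distal E13.5 library gave the lowest count. Using libraries of 1 label style gave 0 calls (against 10) for the epithelial stages and 12 (against 26) for fibroblasts against epithelium, with 4 libraries in each fit, and no filter gave 7 (against 13) for E17.5 against E13.5 fibroblasts, over more genes tested. The replicate block gave 15, 7 and 9 calls for Gata4hi against Sox2hi, Sox2midGata4mid against Sox2hi and Sox2midGata4mid against Gata4hi, against 14, 8 and 11 without it; the calls it ended or added are named with their genes, and it changed no other. *Igf2* between fibroblasts and epithelium, not called at 0.26, reversed to -0.13 on the TPM scale (adjusted p = 0.315) and to -0.32 with quantile normalization (adjusted p = 0.00441). No imprinted gene has a repeated symbol, so summing repeated entries gave the same values. Where a cause is not evident from the setting, the cause was not tested.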
